A study of Mus musculus with 16 samples.

Results

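The comparison was between retinal ganglion cells from mice at the onset of experimental autoimmune encephalomyelitis (EAE) and cells from presymptomatic mice with EAE. The onset group held 3 libraries and the presymptomatic group 4, chosen by the disease stage in their labels, and together they made up 7 of the 16 libraries of the series. The other libraries were 5 naive and 4 peak-stage ones. In all groups the mice were female and the cells, labelled as retinal ganglion cells, were sorted from eyes by flow cytometry. EAE had been induced at 7 to 8 weeks of age in onset and presymptomatic mice alike, so that both groups were induced and their labels differed in stage. The sources used here do not give the strain, the antigen, days after induction, clinical scores, the marker used for sorting, or whether a library came from 1 animal. The p-values therefore measure the spread between these libraries, part of which may be technical.

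Retinal ganglion cells are the output neurons of the retina, and their axons form the optic nerve. EAE is an immune attack on myelin that often reaches the optic nerve, and loss of retinal ganglion cells can follow. ATAC-seq uses a transposase that inserts adapters into accessible DNA, and each library here came from about 15000 to 50000 pelleted cells, with 30 minutes of transposition and 10 cycles of amplification. The values were read counts over gene intervals. For a gene longer than 2000 bp the interval was the gene body without the outermost 1000 bp at each end, so a level describes accessibility inside the gene rather than at its start. For genes under 1000 bp it could take in the start and flanking DNA.

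Nuclear interval reads, in megareads (M), were 4.18, 15.0 and 9.89 M in onset libraries 1 to 3, against 8.17, 7.02, 8.07 and 2.23 M in presymptomatic libraries 1 to 4. The groups overlapped in depth, and presymptomatic library 4 was the shallowest of the 7. Pairwise correlations of log2 CPM (counts-per-million interval reads, scaled between libraries by the trimmed mean of M-values, TMM) had a median of 0.922 between stages, 0.921 within onset and 0.929 within presymptomatic libraries. The first principal component of the 7 libraries, with 34.2% of the variance, set presymptomatic library 4 apart from the other 6. That library and onset library 3 were numbered 16 and 17 in the labels, after the peak libraries. Values without them are given for the rod markers, for several other lists and for the leading genes.

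No gene passed the test between onset and presymptomatic libraries. Of 29902 genes tested with edgeR's quasi-likelihood test, 0 (0%) had a Benjamini-Hochberg adjusted p below 0.05, and the smallest adjusted p was 0.9999. At an unadjusted p below 0.05 there were 1234 genes (4.13%), of which 720 (2.41%) were higher and 514 (1.72%) lower at onset, where 1495 would be expected if no gene differed. On the same threshold DESeq2 called 1 gene, an unnamed predicted transcript, and voom with quality weights and limma-trend called 0. The values below are therefore descriptions of these 7 libraries, with unadjusted p-values given as a measure of rank, and none of the genes named passed the adjusted threshold in edgeR's test.

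**Figure D1:**
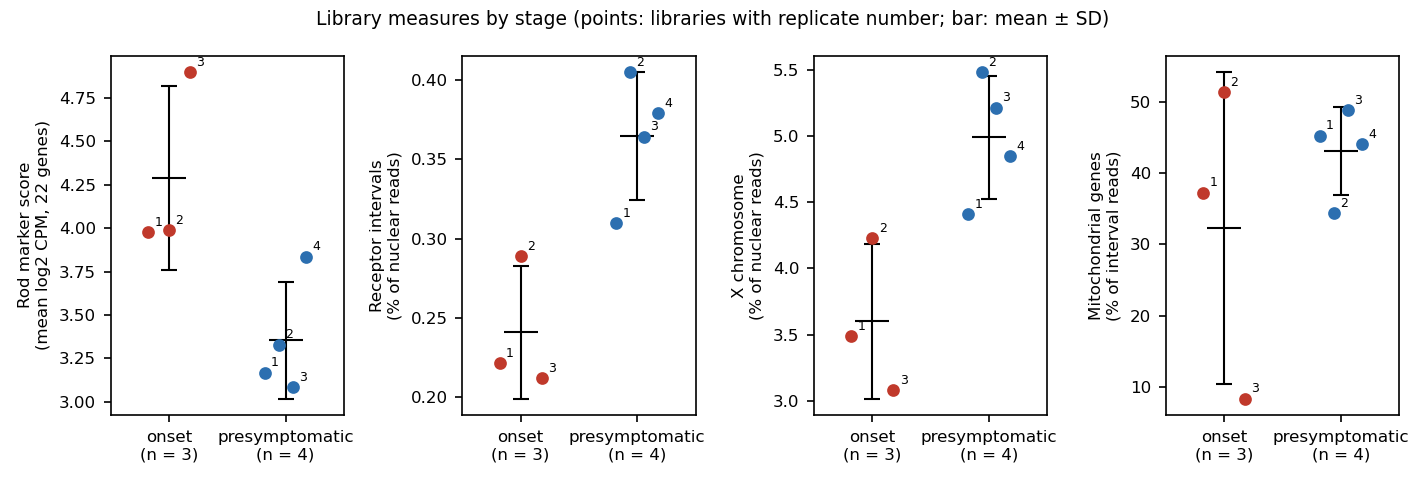
Each panel shows 1 measure per library, with onset (n = 3, red) left of presymptomatic libraries (n = 4, blue), small numbers for the replicate, and bars for mean ± SD. The rod marker score is the mean log2 CPM of 22 rod genes; it was higher in each onset library than in any presymptomatic one, while the shares of reads on receptor intervals and on the X chromosome were lower in each onset library than in any presymptomatic one and the mitochondrial shares overlapped.

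Of the 34 gene lists, the rod markers stood farthest from the rest. The lists and their members were chosen with earlier results of these data known. Their counts beside the background are therefore descriptions and no independent support. Rods are the light-sensing cells for dim light and lie in another layer of the retina than ganglion cells. In their outer segments light leads to activation of transducin, transducin activates a cyclic GMP phosphodiesterase, and the fall in cyclic GMP closes cation channels. Of 23 rod markers, 22 passed the filter on low counts. Of these, 21 were higher at onset, with a median log2 fold change of 1.19, against 53.3% higher and a median of 0.03 over all tested genes. At an unadjusted p below 0.05 there were 16 rod markers higher (background 2.41%) and 0 lower (background 1.72%). For 9 of the 22 all onset libraries lay above all presymptomatic ones (background 5.38%). The remaining marker, Rom1, had no reads in at least 1 of the 7 libraries and was not tested.

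Transducin subunits were among the leading genes. Gnat1, the transducin alpha subunit of rods (chromosome 9, 107674474 to 107679592, as deposited), had 11.3, 10.4 and 24.2 CPM in onset libraries 1 to 3, against 4.25, 5.00, 5.51 and 6.29 CPM in presymptomatic libraries 1 to 4. The ranges did not overlap, and onset library 3 was above the other 6 libraries. The log2 fold change was 1.56 with a standard error of 0.34 and an unadjusted p of 9.65e-05. Gnb1, the transducin beta subunit, which other cells also use, had 37.0, 36.5 and 66.2 CPM at onset, against 16.8, 22, 13.2 and 27 CPM in presymptomatic libraries, a log2 fold change of 1.25 with a standard error of 0.30.

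The phosphodiesterase genes were less uniform. Pde6g, the inhibitory subunit, had 7.91, 6.45 and 12.3 CPM in onset libraries, against 1.94, 2.54, 2.31 and 5.59 CPM in presymptomatic libraries, with a log2 fold change of 1.59. Pde6b, a catalytic subunit, had 20.2, 14.9 and 32.8 CPM at onset, against 10.1, 8.99, 7.69 and 12.1 CPM, presymptomatic, with a log2 fold change of 1.23. In both genes the groups were separate. The partner catalytic subunit Pde6a overlapped between the groups, with 15.2, 20.3 and 37.3 CPM at onset, against 18.4, 16.1, 10.7 and 17.7 CPM in presymptomatic libraries, and a log2 fold change of 0.63. Gngt1, the transducin gamma subunit, was the 1 rod marker with a lower fitted level at onset, at −0.41 with a standard error of 0.58. It had 4.65, 3.59 and 9.12 CPM in onset libraries, against 3.46, 5.00, 4.76 and 19.1 CPM in presymptomatic libraries, where library 4 set the mean.

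The 3 transcription factors of the list were higher at onset. Nrl, the leucine-zipper factor that directs rod fate (chromosome 14, 55518978 to 55524981), had 7.16, 8.17 and 14.5 CPM in onset libraries, against 2.37, 2.61, 2.79 and 4.66 CPM in presymptomatic libraries. No presymptomatic library reached the lowest onset value, and the log2 fold change was 1.73 with a standard error of 0.39. Nr2e3, a nuclear receptor downstream of Nrl, had 25.0, 34.5 and 58.7 CPM at onset, against 11.7, 15.4, 15.6 and 27 CPM in presymptomatic libraries, a log2 fold change of 1.20. Esrrb, an orphan nuclear receptor used by rods, had a log2 fold change of 0.57. In these last genes presymptomatic library 4 overlapped with the onset range. Crx and Otx2, the homeodomain factors shared by photoreceptors and counted in another list, had log2 fold changes of 0.17 and 0.16, with standard errors of 0.45 and 0.44.

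The genes that act on the shut-off and recovery of the light response were all higher in the fit. Sag, rod arrestin, had 31.0, 35.1 and 72.2 CPM in onset libraries, against 18.5, 15.9, 14.2 and 34.2 CPM in presymptomatic libraries, with a log2 fold change of 1.18. Grk1, a photoreceptor kinase, had 17.1, 13.0 and 21.9 CPM at onset, against 8.63, 9.5, 8.98 and 8.62 CPM in presymptomatic libraries. Grk1 showed the narrowest presymptomatic range of these genes and no overlap, at a log2 fold change of 0.95. Rcvrn, recoverin, and Guca1b, a guanylate cyclase activator, had log2 fold changes of 1.34 and 1.28. Among the structural and trafficking genes, Prph2, a rim protein of outer segment discs, had 27.6, 30.4 and 74.2 CPM in onset libraries, against 11.7, 12.4, 14.2 and 28.4 CPM in presymptomatic libraries, with a log2 fold change of 1.43. Reep6 stood above it at 1.51 and Rp1l1 below it at 1.14, and Rp1, a microtubule protein of the outer segment, stood at 0.08. The channel and exchanger genes had smaller differences, with 0.20 for Cnga1, 0.51 for Cngb1, 0.47 for Kcnv2 and 0.67 for Slc24a1, and the groups overlapped in each of these 4.

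**Figure D2:**
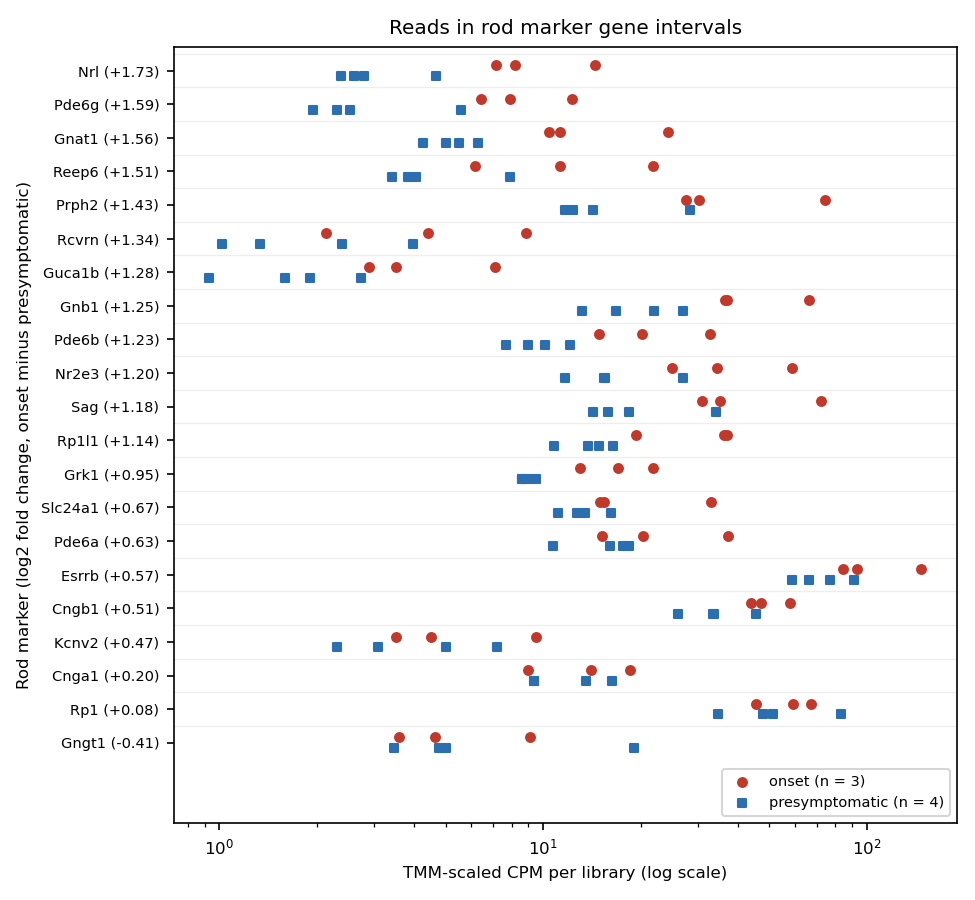
Each row is 1 of 21 tested rod markers, ordered by log2 fold change (in brackets); points are TMM-scaled CPM on a log axis, red circles for the 3 onset and blue squares for the 4 presymptomatic libraries. Nrl, Pde6g and Gnat1 head the plot with separate groups, and Gngt1 at the foot has 1 presymptomatic library far to the right of the others.

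The rod difference was carried most by onset library 3. It was the highest of the 7 libraries for 19 of 22 rod markers, and presymptomatic library 4 was the highest of its group for 16. The mean log2 CPM of the rod markers was 3.98, 3.99 and 4.90 in onset libraries, against 3.17, 3.33, 3.08 and 3.84 in presymptomatic libraries. Every onset library was above every presymptomatic one, onset library 1 lying nearest to presymptomatic library 4. By stage, the mean score was 3.48 in naive, 3.35 in presymptomatic, 4.29 in onset and 3.45 in peak libraries. These stages overlapped library by library: the highest peak library, at 4.01, was above onset libraries 1 and 2, and the highest naive library was at 3.90. The onset mean was the highest of the 4 stages for 20 of the 22 markers, and the presymptomatic mean the lowest for 15. Summed over the 23 listed genes, rod marker levels were 516, 521 and 902 CPM in onset libraries, against 324, 330, 304 and 485 CPM in presymptomatic libraries. Without onset library 3, 19 of 22 rod markers were still higher at onset, with a median of 0.76 for the log2 fold change, and 8 at an unadjusted p below 0.05. Over all 30574 genes of that fit the median was −0.01, with 301 higher and 545 lower at that threshold. Without both libraries 16 and 17, 21 of 22 were higher, with a median of 0.97 and 11 at an unadjusted p below 0.05. Over all 30834 genes of this second fit the median was −0.01, with 227 higher and 422 lower at that threshold.

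Of the 3 planned library measures, the share of receptor reads was separate between the groups, while the mitochondrial share and depth overlapped. Mitochondrial genes took 37.2%, 51.3% and 8.36% of interval reads in onset libraries, against 45.2%, 34.4%, 48.9% and 44.1% in presymptomatic libraries. Onset library 3 thus combined the highest rod score with the lowest mitochondrial share. The mean difference of −10.8 points had a two-sided exact permutation p of 0.429, and turned to 1.14 points without that library. The share of nuclear reads on olfactory and vomeronasal receptor intervals, genes of the olfactory system used here as a measure of background, was 0.222%, 0.289% and 0.212% in onset libraries, against 0.310%, 0.405%, 0.364% and 0.379% in presymptomatic libraries. All onset shares were lower than all presymptomatic shares. The difference of −0.124 points had a two-sided exact permutation p of 0.0571, or 0.171 adjusted over the 3 planned measures. The smallest p that 3 against 4 libraries can give is 0.0286. The X-linked share of nuclear reads, compared outside these 3, was also separate, with an unadjusted exact permutation p of 0.0286. Depth differed by 3.33 M nuclear reads with an exact permutation p of 0.371. With the receptor share as a covariate in edgeR's fit, 22 of 22 rod markers were higher at onset, with a median log2 fold change of 0.95.

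Rod promoters were searched for the core of the homeodomain factors Crx and Otx2, TAATCC, and for a Nrl half-site, TGCTGA, on both strands, because these factors act together on rod genes. The windows ran from 250 bases before to 50 after the RefSeq start (GRCm38.p6), and the promoter table used here held 13 of the 23 rod genes. TAATCC or its complement was in 4 of the 13, and in 7.06% of all 32851 promoters. TGCTGA or its complement was in 3 of the 13, and in 19.5% of all promoters. The rod counts are by gene, with a match in any of its windows, and the shares are by window, so the units differ. The 4 shown are those of a rod regulator with neither motif in its window, of 2 genes higher at onset and of the rod marker with the lower fitted level. Capitals mark the motifs, and the sequences run 5′ to 3′ on the gene's strand. The Nrl window lies at chr14:55524203-55524502 (minus strand), Sag at chr1:87803430-87803729 (plus), Pde6b at chr5:108388123-108388422 (plus) and Gngt1 at chr6:3993758-3994057 (plus). The Nrl window lies inside the Nrl gene as deposited, whose start is farther upstream, so DNA before that deposited start was not searched.
Nrl: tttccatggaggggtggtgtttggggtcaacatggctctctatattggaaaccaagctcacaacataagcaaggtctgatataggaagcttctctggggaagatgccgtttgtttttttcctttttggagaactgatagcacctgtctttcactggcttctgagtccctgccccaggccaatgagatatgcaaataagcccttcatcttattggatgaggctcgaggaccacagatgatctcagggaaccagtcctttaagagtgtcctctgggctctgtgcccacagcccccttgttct
Sag: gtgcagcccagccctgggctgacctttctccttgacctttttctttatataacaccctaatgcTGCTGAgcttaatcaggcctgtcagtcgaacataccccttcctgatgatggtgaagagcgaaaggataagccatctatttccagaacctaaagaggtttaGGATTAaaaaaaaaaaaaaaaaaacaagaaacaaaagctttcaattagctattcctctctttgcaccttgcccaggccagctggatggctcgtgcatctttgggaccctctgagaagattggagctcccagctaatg
Pde6b: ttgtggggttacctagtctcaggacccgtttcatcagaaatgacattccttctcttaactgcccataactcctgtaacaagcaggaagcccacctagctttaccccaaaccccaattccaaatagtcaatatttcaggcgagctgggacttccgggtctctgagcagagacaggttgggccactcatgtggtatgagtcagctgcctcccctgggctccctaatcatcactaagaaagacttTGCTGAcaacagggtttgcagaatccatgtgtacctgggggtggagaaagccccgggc
Gngt1: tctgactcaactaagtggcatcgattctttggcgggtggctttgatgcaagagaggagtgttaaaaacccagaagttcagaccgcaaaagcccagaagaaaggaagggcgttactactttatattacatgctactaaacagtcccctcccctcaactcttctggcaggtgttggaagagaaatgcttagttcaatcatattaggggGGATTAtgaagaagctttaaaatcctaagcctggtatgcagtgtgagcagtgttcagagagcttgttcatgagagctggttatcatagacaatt
Sag held both motifs, Pde6b the half-site only and Gngt1 the homeodomain core only. A match is a description of letters and not of a bound site. Since the counted intervals left out the outermost 1000 bp of a gene, reads at a gene's deposited start did not enter its value.

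Other photoreceptor genes were mixed. Of 15 cone markers tested, 9 were higher at onset, with a median of 0.12 for the log2 fold change, and 2 higher at an unadjusted p below 0.05 (background 2.41%): Grk1, which cones share with rods, and Gucy2e, a photoreceptor guanylate cyclase. Gucy2e had 14.8, 11.5 and 19.6 CPM in onset libraries, against 9.05, 7.90, 8.50 and 7.22 CPM in presymptomatic libraries, with no overlap and a log2 fold change of 0.90. The mean log2 CPM of the cone markers was 3.51 to 3.82 in onset libraries, against 3.32 to 3.45 in presymptomatic libraries, without overlap. Their summed levels overlapped, with 481 to 697 CPM at onset and 520 to 629 CPM in presymptomatic libraries. Without onset library 3 the cone median was 0.33, with 1 gene at an unadjusted p below 0.05. The cone opsin gene Opn1sw had no reads in at least 1 of the 7 libraries. Of 22 photoreceptor regulators and outer segment genes, 14 were higher, with a median of 0.36 and 5 higher at an unadjusted p below 0.05 (background 2.41%). Without onset library 3 the median was 0.12, with 13 of 22 higher and 1 at an unadjusted p below 0.05, and without both libraries 16 and 17 it was 0.21, also with 1. The leading ones were Rdh12 and Rdh8, retinol dehydrogenases of the visual cycle, at log2 fold changes of 1.40 and 1.33, Fscn2, a photoreceptor fascin, at 1.38, and Unc119, which carries transducin, at 1.13. Unc119 had 13.9, 14.7 and 28.5 CPM in onset libraries, against 6.81, 8.85, 8.37 and 11.2 CPM in presymptomatic libraries, and did not overlap. Over these 3 photoreceptor lists together, 43 of 54 genes off the X chromosome were higher at onset, with a median of 0.65. The 4 on the X chromosome, among them the calcium channel gene Cacna1f, cone opsin gene Opn1mw and cone arrestin gene Arr3, were all lower, with a median of −0.56.

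Ganglion cell markers, the check on the sort, did not share the rod pattern. Of 29 tested, 12 were higher and 17 lower at onset, with a median log2 fold change of −0.09. Slc17a6, which loads glutamate into synaptic vesicles of ganglion cells, was the 1 marker at an unadjusted p below 0.05. It had 8.92, 8.25 and 12.4 CPM in onset libraries, against 12.5, 13.0, 17.3 and 23.8 CPM in presymptomatic libraries, all onset values being lower, with a log2 fold change of −0.74 and a standard error of 0.29, at an unadjusted p of 0.0185. Rbpms, an RNA-binding protein that marks ganglion cells as a class, had 78.7, 106 and 63.5 CPM at onset, against 85.0, 92.2, 112 and 78.5 CPM in presymptomatic libraries, and overlapped. Summed ganglion cell marker levels were 972, 1121 and 720 CPM in onset libraries, against 1026, 1149, 1312 and 1089 CPM in presymptomatic libraries. Onset library 3 was lowest in this sum and highest in the rod sum. Read density, in reads per kb of interval and M nuclear reads, had a median over the ganglion cell markers of 0.975 at onset and 1.07 in presymptomatic libraries, against 0.653 and 0.666 over all tested genes. Rod markers had 1.67 and 0.951, so that both sets were above the typical gene in both stages. The ganglion cell markers Pou4f2, Nefl and Cartpt had 0 reads in at least 1 library. In such bulk libraries a larger number of cells of a type and more accessible DNA per cell cannot be told apart.

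Markers of other retinal cells differed little. Bipolar cell markers were higher at onset for 9 of 16 with a median of 0.04, amacrine and horizontal cell markers for 10 of 18 with a median of 0.07, and Müller glia and astrocyte markers for 8 of 18 with a median of −0.02. Over these 3 lists 1 gene was at an unadjusted p below 0.05. Pigment epithelium markers were higher for 6 of 15, with a median of −0.01, and Tyr, tyrosinase, was lower at a log2 fold change of −1.01 (unadjusted p = 0.0174). Endothelial and pericyte markers were higher for 6 of 20, with a median of −0.11, and the pericyte receptor gene Pdgfrb stood at 0.61 (unadjusted p = 0.0493). Oligodendrocyte markers were higher for 10 of 13, with a median of 0.06.

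Immune cells and immune signalling gave no group of genes at a low p. Of 14 microglia and macrophage markers tested, 6 were higher at onset, with a median of −0.08 for the log2 fold change, and 0 at an unadjusted p below 0.05. Their summed level ranged from 118 to 127 CPM at onset and from 134 to 143 CPM in presymptomatic libraries, lower at onset without overlap, while their mean log2 CPM overlapped, with 1.87 to 2.28 at onset and 1.87 to 2.30 in presymptomatic libraries. Of the 20 listed, 8 had 0 reads in at least 1 library, among them Aif1, Tyrobp, C1qa and Lyz2. Of 20 lymphocyte markers 14 were higher, with a median of 0.12, and Cd3d, Cd8a and Cd79a had 0 reads in at least 1 library. Foxp3, the factor of regulatory T cells, lies on the X chromosome and was lower, at a log2 fold change of −1.09. Interferon response genes were higher for 22 of 38, with a median of 0.08 and 1 at an unadjusted p below 0.05, Trim30a, at −0.91. Antigen presentation genes were higher for 12 of 16, with a median of 0.33 (0.15 without onset library 3, 0.06 without both libraries 16 and 17) and 0 at an unadjusted p below 0.05. In the NF-kB and cytokine list 11 of 18 were higher, with a median of 0.17. Tnfaip3, an inhibitor of NF-kB, had 14.2, 10.7 and 20.2 CPM at onset, against 7.53, 7.98, 9.86 and 10.5 CPM in presymptomatic libraries, a log2 fold change of 0.76 with separate groups. Cytokine receptors stood at 12 of 23 and 0.01, and complement genes at 7 of 15 and −0.11.

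Genes of neuronal injury and stress showed small differences. Axon injury genes were higher for 15 of 24, with a median of 0.14, and Map3k12, the kinase DLK that senses axon damage, had a log2 fold change of 0.54 with a standard error of 0.34. Integrated stress response genes were higher for 9 of 17 (median 0.04), unfolded protein and heat shock genes for 12 of 16 (median 0.11) and cell death genes for 12 of 24 (median 0.02). Of the cell death genes Bcl2l1, which encodes the survival protein Bcl-xL, had 46.1, 40.3 and 52.3 CPM at onset, against 36.5, 28.8, 39.7 and 25.8 CPM in presymptomatic libraries, with no overlap and a log2 fold change of 0.49. Atf3 and Ddit3, factors switched on in injured ganglion cells, stood at −0.13 and −0.21, with standard errors of 0.41 and 0.83.

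Some regulatory and neuronal lists leaned to onset. Named genes as a class, without predicted, receptor, small RNA and mitochondrial ones, leaned the same way. Of 16868 such genes tested, 60.9% were higher, with a median of 0.10 for the log2 fold change. At an unadjusted p below 0.05, 2.99% of them were higher. Immediate early genes, which neurons transcribe upon activity, were higher for 17 of 20, with a median of 0.46 for the log2 fold change, and 2 higher at an unadjusted p below 0.05 (background 2.41%). Without presymptomatic library 4 the median was 0.24, without both libraries 16 and 17 it was 0.38, and in both fits 0 were at an unadjusted p below 0.05. Jund, an AP-1 subunit, had 11.3, 12 and 17.9 CPM at onset, against 10.5, 7.40, 7.55 and 4.19 CPM in presymptomatic libraries, with no overlap and a log2 fold change of 0.87. Nr4a1, an orphan nuclear receptor, had a log2 fold change of 0.91 and overlapped. Circadian clock genes were higher for 20 of 21, with a median of 0.27. Per1, a repressor in the clock loop, had 33.0, 25.8 and 27.5 CPM at onset, against 17.2, 16.5, 16.7 and 18.9 CPM in presymptomatic libraries. Its groups were well apart, at a log2 fold change of 0.73 with a standard error of 0.32, while Clock stood at −0.02. No label used here gives the time of day of collection.

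Replication-cluster histone genes, short and highly accessible, were higher for 20 of 22, with a median of 0.34 and 0 at an unadjusted p below 0.05. Polycomb and H3K27 demethylase genes were higher for 17 of 29, a share near the 60.9% of all named genes. Their median was 0.30, against 0.10 for all named genes, and 3 were higher at an unadjusted p below 0.05 (background 2.41%). Without onset library 3 the median was 0.23, without both libraries 16 and 17 it was 0.21, with the receptor share as a covariate 0.05, and in these 3 fits 0 were at an unadjusted p below 0.05. Kdm6b, an H3K27 demethylase, had 33.8, 25.1 and 39.9 CPM at onset, against 22.1, 15.6, 19.4 and 17 CPM in presymptomatic libraries, a log2 fold change of 0.82. In the reprogramming and DNA methylation list, with 13 of 18 higher and a median of 0.18 (0.02 without onset library 3), Tet3, a 5-methylcytosine dioxygenase, had 83.3, 57.4 and 70.8 CPM at onset, against 48.4, 39.1, 45.2 and 52.4 CPM in presymptomatic libraries. Both genes were separate between the groups, Tet3 at a log2 fold change of 0.61. Synapse genes were higher for 17 of 24, with a median of 0.17 (0.28 without both libraries 16 and 17, −0.04 with the receptor share as a covariate). Of these Dlg4, the scaffold PSD-95, had 31.1, 22.4 and 41.5 CPM at onset, against 16.3, 16.5, 16.3 and 18.6 CPM in presymptomatic libraries, a log2 fold change of 0.91 with no overlap. Snap25, of the vesicle fusion machinery, had a log2 fold change of 0.59. Neuronal ion channel genes were higher for 18 of 26 (median 0.12), whereas glutamate receptor genes were higher for 9 of 25 (median −0.13).

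Housekeeping and other lists had medians from −0.19 to 0.13. Oxidative phosphorylation genes were higher for 16 of 26 (median 0.13). Cell cycle genes were higher for 11 of 20 (median 0.05), cholesterol synthesis genes for 12 of 22 (median 0.02), Hox genes for 5 of 11 (median −0.02) and cytosolic ribosomal protein genes for 3 of 8 (median −0.19).

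The leaning of several lists changed when the receptor share entered the fit as a covariate. The median of the immediate early genes then stood at −0.01 with 9 of 20 higher, that of the clock genes at −0.02 with 7 of 21 higher, and that of the replication-cluster histones at −0.16. The median of the synapse genes stood at −0.04 with 11 of 24 higher, and that of the neuronal ion channel genes at −0.10 with 8 of 26 higher. Rod markers and the photoreceptor regulators kept medians of 0.95 and 0.38. Across the 34 lists 25 medians were above 0 and 9 below, and in 15 lists 0 genes reached an unadjusted p below 0.05. The median of all named genes tested was also above 0, at 0.10.

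**Figure D3:**
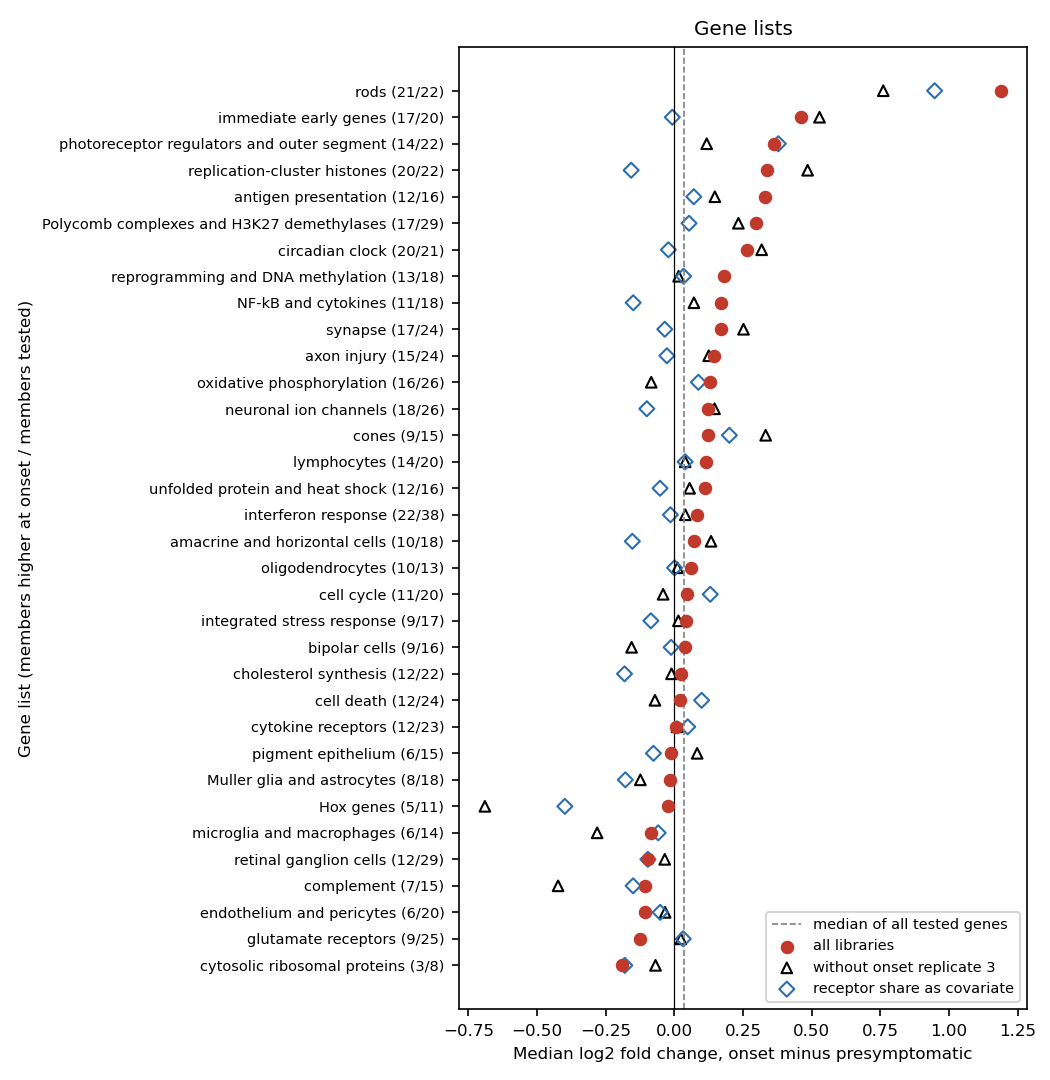
Each row is 1 of 34 gene lists, with members higher at onset over members tested in brackets, and the x axis gives the median log2 fold change, onset minus presymptomatic. Red circles are all libraries, black triangles the fit without onset library 3, blue diamonds the fit with the receptor share as covariate, and the dashed line is the median of all tested genes, 0.03. The rod markers lie apart on the right under each of the 3 fits, while the immediate early, clock and histone lists move to 0 or below with the covariate.

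Away from the lists, the 12 named genes of smallest p in each direction were taken by rule. Of the 12 higher ones, 4 were rod markers, with Gnat1, Nrl and Gnb1 among them, 0 were X-linked, and in 12 of 12 the groups were separate (background 5.38%), which a choice by p favours, with log2 fold changes of 1.05 to 2.45. Onset library 3 was the highest library for 10 of them. Without it the 12 had log2 fold changes of 0.81 to 2.90, and without both libraries 16 and 17 of 0.70 to 2.85. Adamtsl5, a secreted ADAMTS-like protein, had 8.41, 5.50 and 11.1 CPM at onset, against 2.67, 2.54, 2.72 and 2.56 CPM in presymptomatic libraries. These presymptomatic values were nearly alike, and the log2 fold change was 1.66. It lies on chromosome 10 at 80339793 to 80349039 bp, and the rod marker Reep6 at 80330003 to 80336441 bp on the same chromosome. Tob2, an antiproliferative protein, had 17.5, 16.4 and 32.2 CPM at onset, against 11.1, 7.98, 10.6 and 7.22 CPM in presymptomatic libraries, a log2 fold change of 1.25. Rnaseh2a, the catalytic subunit of ribonuclease H2, and Mrps33, a mitochondrial ribosomal protein, had log2 fold changes of 1.22 and 1.32. Cbr3, a carbonyl reductase, had the largest fold change of the 12, 2.45, but it rested on 1 library, with 22.2, 2.71 and 2.44 CPM at onset, against 1.34, 2.03, 1.63 and 1.40 CPM in presymptomatic libraries. Ushbp1, Cfap70 and Fam57b completed the set, at 1.53, 1.05 and 1.19.

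The 12 lower genes had larger p-values, 0.00238 to 0.0117 unadjusted, and 3 of them were on the X chromosome. In 11 of 12 all onset libraries lay below all presymptomatic ones (background 4.69%), which a choice by p favours. Presymptomatic library 4 was the highest library for 10. Without it the 12 had log2 fold changes of −1.65 to −0.62, and without both libraries 16 and 17 of −1.67 to −0.59. Bmx, an X-linked tyrosine kinase, had 13.1, 14 and 14 CPM at onset, against 24.5, 22.8, 26.4 and 33.5 CPM in presymptomatic libraries, a log2 fold change of −0.96. Frmd7, also X-linked and mutated in inherited nystagmus in humans, had 11.2, 15.5 and 14 CPM at onset, against 23, 29.9, 24.1 and 34.9 CPM in presymptomatic libraries, at −1.04. In both the onset values lay within a narrow range under all the presymptomatic values. Clec2f and Klra5, from the natural killer gene complex region with its many similar copies, stood at −1.72 and −1.69, and reads could be split between the copies. Armc4, a cilium protein gene, had 41.4, 50.0 and 45.3 CPM at onset, against 63.4, 85.4, 82.0 and 101 CPM in presymptomatic libraries, at −0.86. Musk, the receptor kinase of the neuromuscular junction, stood at −0.82, Tecrl at −1.08, Gprc6a at −1.33, Fthl17a at −1.30, Cklf at −1.56, Fsip2 at −1.15 and Ms4a13 at −1.25.

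**Figure D4:**
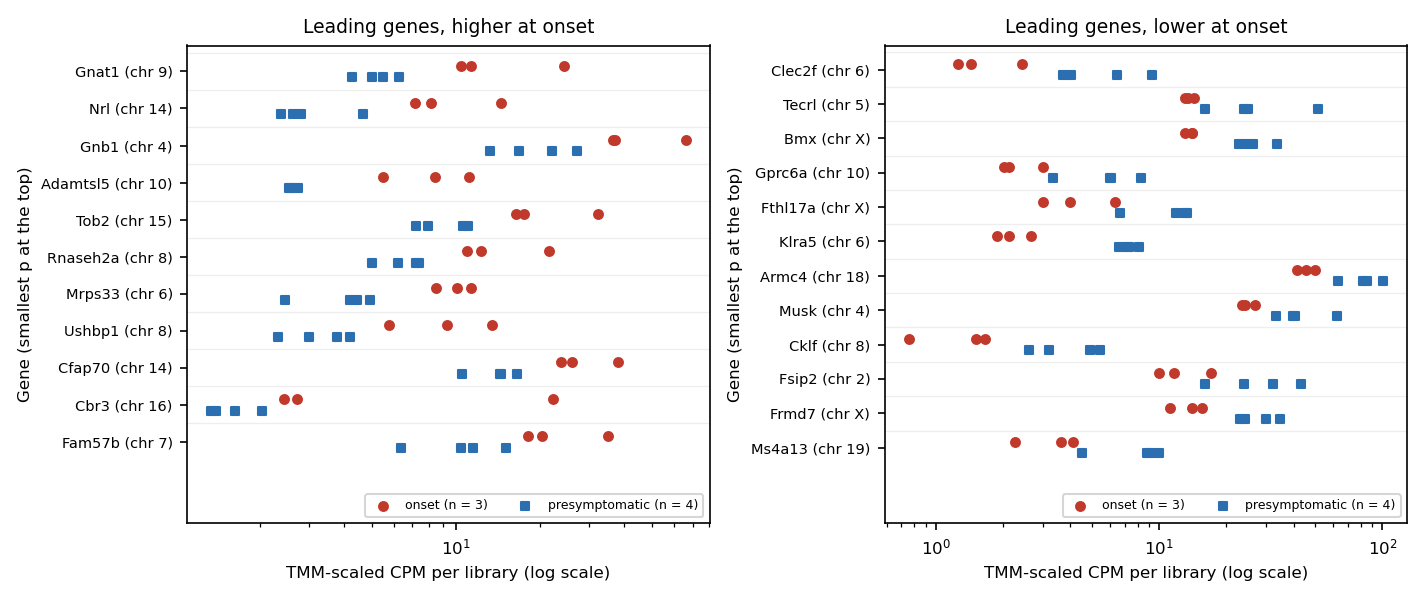
TMM-scaled CPM on a log axis for 11 of the 12 named genes of smallest p that were higher (left) and for the 12 that were lower (right) at onset, with red circles for the 3 onset and blue squares for the 4 presymptomatic libraries. All 11 genes on the left and 11 on the right have separate groups; Cbr3 has 1 onset library at 22.2 CPM and the other onset libraries near the presymptomatic ones.

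Among named genes shorter than 1000 bp with a mean count of at least 30, Naa38, Scand1 and Mif were the higher ones of smallest p. Intervals of such short genes can take in the start. Mif, a cytokine also made by neurons, had 12.7, 14.9 and 15.5 CPM at onset, against 9.54, 8.34, 7.07 and 6.75 CPM in presymptomatic libraries, a log2 fold change of 0.85 with separate groups. Naa38, of an N-terminal acetyltransferase, and Scand1 had log2 fold changes of 1.25 and 1.17. The lower ones of smallest p were the histone genes Hist1h1a, Hist1h2bk and Hist1h2ab, at −0.04 to −0.06. Their unadjusted p in edgeR's test was 0.911 to 0.919, and these differences were within the spread of the libraries. Of all 1705 genes under 1 kb tested, 877 were lower at onset. At an unadjusted p below 0.05, 21 were lower (1.23%, background 1.72%) and 73 higher (4.28%, background 2.41%).

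By position, the X chromosome stood apart from all autosomes. Of 1099 X-linked genes tested, 983 were lower at onset, with a median log2 fold change of −0.51, whereas the medians of the autosomes ran from −0.04 on chromosome 3 to 0.22 on chromosome 11. At an unadjusted p below 0.05, 104 X-linked genes (9.46%) were lower, against 1.72% of all genes, and 1 was higher. For 256 of the 1099 all onset libraries were below all presymptomatic ones (23.3%, background 4.69%). The X-linked share of nuclear reads was 3.49%, 4.23% and 3.08% in onset libraries, against 4.41%, 5.48%, 5.21% and 4.85% in presymptomatic libraries. The groups were separate, with onset library 2 nearest to the presymptomatic ones. Xist and Tsix, the overlapping transcripts of the X inactivation centre, which an unstranded count cannot tell apart, had log2 fold changes of 0.07 and 0.08, and Ddx3x and Kdm5c, which escape X inactivation, 0.35 and −0.05. These 4 were chosen after their values were seen, and other genes that escape X inactivation are not given. They do not show how such genes moved as a set. Of 19 tested X-linked members of the gene lists, 18 were lower at onset, with a median of −0.48. All mice were female by label.

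The median log2 CPM of X-linked genes minus that of autosomal genes was −0.36, −0.01 and −0.53 in onset libraries, against 0.10, 0.40, 0.40 and 0.19 in presymptomatic libraries. Over the naive libraries the same difference ran from −0.29 to 1.11 and over the peak libraries from −0.20 to 1.00, and both ranges overlapped with those of the onset and the presymptomatic libraries. The X-linked difference moved with the receptor share. Olfactory receptor intervals were lower at onset for 420 of 498, with a median of −0.68 for the log2 fold change, and vomeronasal receptor intervals for 164 of 184, with a median of −0.72. With the receptor share as a covariate the median of X-linked genes was 0.06, with 464 of 1099 lower, against −0.51 without it. What the receptor share itself stands for was not tested. Genes on unplaced contigs were lower for 56 of 59, with a median of −0.90.

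Genes with the densest reads leaned the other way. Genes were ranked by read density in the 9 naive and peak libraries, which took no part in the contrast. In the densest decile 69.8% of 2976 genes were higher at onset, with a median of 0.18 for the log2 fold change, and 7.02% higher at an unadjusted p below 0.05 (background 2.41%). The medians of the other deciles ran from −0.05 to 0.08. X-linked genes were lower than 0 in their median in every decile, with −0.16 in the densest and −0.91 in the sparsest. Small nucleolar RNA intervals, mostly inside host genes, were at an unadjusted p below 0.05 and higher for 11 of 79 (13.9%) and lower for 0, with a median of 0.30, which was 0.02 with the receptor share as a covariate.

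**Figure D5:**
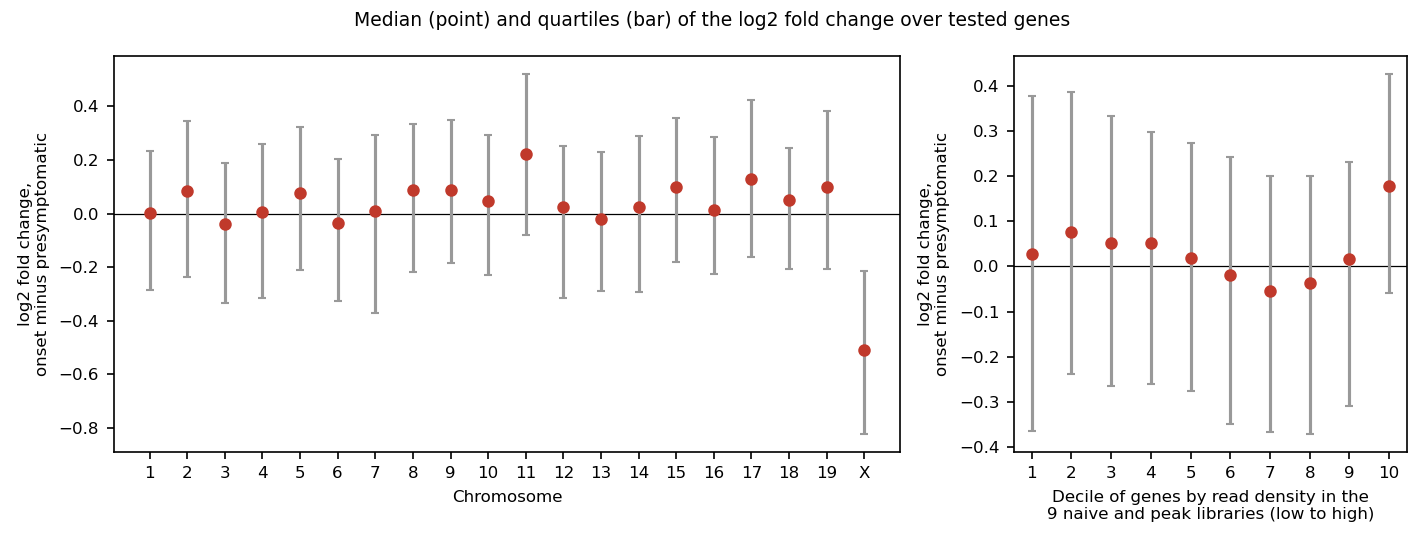
Median (red point) and quartiles (grey bar) of the log2 fold change, onset minus presymptomatic, by chromosome (left) and by decile of read density from low to high (right). The X chromosome median of −0.51 lies under those of all autosomes, and the densest decile has the highest median of the deciles, 0.18.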

How the data were processed

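The deposited table covers 37255 gene intervals, each with raw unscaled counts and RPKM for all 16 libraries. In these counts the authors used cutadapt, HISAT2 and HTSeq, per the submitters' processing notes; the sources used here state no versions, genome build, duplicate handling or read shift. The authors' RPKM values served here only to read total reads (8.48 to 65.2 megareads in the 7 onset and presymptomatic libraries) and interval lengths. That length was the difference between gene span and 2000 bp. Deposited starts count from 0 and are printed counted from 1; they equal those of GRCm38.p6 for 70.4% of names shared with RefSeq, and no build is assigned. The design had foreseen promoter windows, so receptor shares were computed on the 1457 receptor gene intervals.

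Counts were tested with edgeR 4.0.16 (R 4.3.3; limma 3.58.1 and DESeq2 1.42.0 as alternatives). filterByExpr (minimum count 10, minimum total 15) kept 29902 genes, libraries were scaled by TMM, and a quasi-likelihood fit with 4 stage means took in all 16 libraries, with the contrast onset minus presymptomatic, Benjamini-Hochberg adjustment and a threshold of 0.05. Standard errors were derived from the F statistic, and log2 CPM took 2 as its prior count. Library shares were compared by two-sided exact permutation over 35 splits; their 95% Wilson intervals spanned at most ±0.0487 points for mitochondrial and ±0.00807 for receptor shares, and cover counting error only, since reads carried no molecular identifiers. Genes were named by rule, among those with a mean count of at least 30 and not predicted or small RNA: the 12 of smallest p per direction, up to 4 members per list at p below 0.05 or else the 1 of smallest p, and the 3 of smallest p per direction with spans under 1000 bp; other members are named with values as examples. Lists and members were chosen with earlier results of these data known. Lists carry no test. Some genes that the rule names are counted in their lists but not reported here.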

Additional observations from a re-analysis of the deposited data

Results flagged for a closer look

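Among 112 sets of presymptomatic values checked, 1 held a library far from the others by Dixon's criterion: Dlg4, the synaptic scaffold gene, with 18.6 CPM in presymptomatic library 4, against 16.3 to 16.5 CPM in the other 3. Its gap to the nearest library was 0.884 of the whole range, past the 95% critical value for 4 libraries. Chance alone marks about 1 in 20 sets. The value lies below all onset values, 31.1, 22.4 and 41.5 CPM.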

How the results depend on the processing

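The call of 0 genes in edgeR's test held under the alternatives tried other than DESeq2, which called 1 predicted transcript (adjusted p = 0.0280), and the replicate block, which called 1. Numbers shared between groups were taken as a block only as an alternative. Deviations of same-numbered libraries from their group means correlated at −0.02, −0.01 and −0.34. These values showed no pairing by number, but with so few libraries they cannot decide whether there was one. The gene called with the replicate block had an adjusted p of 0.0452. Counts at an unadjusted p below 0.05, 720 higher and 514 lower, depended on the settings. With total interval counts in place of TMM they were 1452 and 86, and 94.4% rather than 58.3% were higher; the median gene then stood at 0.34 instead of 0.03. They were 1905 and 2105 with voom, 393 and 211 with the receptor share as covariate, and 1064 and 1691 in the 7 libraries alone. Without libraries 16 and 17 they were 227 and 422. Leaving out 1 library at a time gave 301 to 873 higher and 172 to 963 lower genes. The lowest counts came without onset library 3 for higher and without onset library 1 for lower genes; without presymptomatic library 2 they were 476 and 302, and without presymptomatic library 4 613 and 331. The cause was not tested. The rod median ran from 0.76 to 1.66 over 20 alternatives and the ganglion cell median from −0.23 to 0.12. The mitochondrial difference of −10.8 points was 1.46 without libraries 16 and 17, and ran from −20.3 to 1.14 over the fits that leave out 1 library, the last without onset library 3.

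Of the named genes, the sign turned for the 3 short histone genes, whose values were near 0. With total counts Hist1h1a, Hist1h2bk and Hist1h2ab had log2 fold changes of 0.17, 0.12 and 0.21. With voom Hist1h2bk had 0.27 and Hist1h2ab 0.54, while Hist1h2ab had 0.093 with limma-trend and 0.14 with the replicate block. Without libraries 16 and 17 Hist1h1a, Hist1h2bk and Hist1h2ab had 0.034, 0.33 and 0.50. Leaving out 1 library at a time, Hist1h1a ran from −0.31 to 0.14, Hist1h2bk from −0.25 to 0.27 and Hist1h2ab from −0.30 to 0.35. The stricter filter gave no value for the cytosolic ribosomal protein list or for Cdk2, Hoxa10 and Rpl3, which it removed. Presymptomatic library 4, with 2.23 M nuclear reads (megareads), limits what can be seen in genes of few reads.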
